A study of Triticum aestivum with 6 samples.

Results

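The KOMUGI 38k array carried 39 probes, of 37826 in all, whose signal was lowered in crown tissue of one grass-clump dwarf wheat and kept in crown tissue of another. They were chosen from the scaled signals of all 6 arrays. A member had a lower WT value of at least 60, stayed at or below 0.5 times that value on both arrays of the Langdon-derived dwarf, and stayed at or above 0.75 times that value on both arrays of the dwarf derived from T. carthlicum. Of 25798 probes bright enough in WT, 142 met the condition for the Langdon-derived dwarf, and 39 of these also met the condition for the second dwarf. A probe was put in the crt-higher group, with 25 members, when its lower value in the second dwarf was over 1.25 times the higher WT value, and otherwise in the crt-unchanged group, with 14 members. Because the choice used every array and every contrast, the members' differences between lines are a description, and the calls of tests across all probes are given at the end only beside the share of all probes called.

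Each line was a synthetic hexaploid wheat, in which a tetraploid wheat supplied the A and B genomes and the wild diploid goat grass Ae. tauschii supplied the D genome. The grass-clump dwarf lines, which have excess tillers, were Langdon/Ae. tauschii KU2025 (Ldn/KU-2025) and T. carthlicum/Ae. tauschii KU2025 (crt/KU-2025), and the wild type was Langdon/Ae. tauschii KU2059 (Ldn/KU-2059, called WT), with normal growth. Crowns, the shoot bases that hold the shoot apical meristem, came from plants kept for 8 weeks at 24°C in long days (18 h light, 6 h dark), and Cy3-labeled cRNA of each was hybridized to a 1-color array, with 2 arrays per line. Ldn/KU-2025 thus shared its tetraploid parent with WT and its Ae. tauschii parent with crt/KU-2025, whereas crt/KU-2025 shared neither parent with WT. Each line came from 1 cross combination, so a difference between lines is that between particular parents as well as between growth types. The study states 2 independent experiments for each line, but nothing states which plants were pooled, so the spread is that between these arrays.

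Of the probes, 75.1% to 77.6% per array were well above background and 0 were saturated. The Ldn/KU-2025 and WT arrays lay on 1 slide and the crt/KU-2025 arrays on another, so that line and slide cannot be told apart in crt/KU-2025. The crt/KU-2025 arrays were also the least alike: the median absolute log2 difference between replicates over the 25798 bright probes was 0.06 for Ldn/KU-2025, 0.18 for crt/KU-2025 and 0.06 for WT. For 19 probes described as chlorophyll a/b binding or ribulose bisphosphate carboxylase proteins, the summed signal was 29106 and 29986 for Ldn/KU-2025, 16319 and 177103 for crt/KU-2025, and 5419 and 5299 for WT. The 4 histone probes summed to 6502 and 7086 for Ldn/KU-2025, 2317 and 399 for crt/KU-2025, and 27007 and 26940 for WT. The 2 root peroxidase probes summed to 683 and 746 for Ldn/KU-2025, 3428 and 3228 for crt/KU-2025, and 55.1 and 26.1 for WT, where neither was above background on both arrays. The 3 AP1/FUL-type MADS-box probes, of a family that promotes flowering in cereals, summed to 5026 and 4797 for Ldn/KU-2025, 1546 and 1776 for crt/KU-2025, and 4761 and 5075 for WT. No probe of these lists was a member, and the part of a changed tissue make-up in the values below was not tested. In whole crowns, fewer cells of a type and less RNA per cell cannot be told apart.

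The members were selected as lowered in Ldn/KU-2025 and kept in crt/KU-2025, and the second word fits only some of them. All 39 were below WT on both Ldn/KU-2025 arrays by the choice itself, which 37.7% of all probes were. In crt/KU-2025, however, 31 of the 39 were above both WT arrays on both arrays, including 6 of the 14 crt-unchanged members, 3 overlapped WT, and 5 of the crt-unchanged members were below both WT arrays. Over all probes, 44.6% had both crt/KU-2025 arrays above both WT arrays and 39.1% had both below. For most members the signal in crt/KU-2025 was thus above WT rather than level with it, a description that the choice of members bears on. Of the 31, 14 were probes with clone names, described below, that cannot be counted as separate genes. Among the other 25 members, 17 were above both WT arrays on both arrays.

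Of the described members, 1 carries a name from plant defence, a partial Mla sequence. Another 8 share the ontology terms extracellular region, ion channel inhibitor activity and pathogenesis. Resistance proteins of the nucleotide-binding leucine-rich repeat class sense pathogen effectors inside the cell, and mismatched alleles of such genes are a known source of hybrid necrosis in plants. Small secreted defence proteins act outside the cell, and some of them are toxic to microbes or insects. Whether the 8 probes with those terms read such proteins was not tested. Of the remaining descriptions, CENTRORADIALIS is a snapdragon gene of the TERMINAL FLOWER 1 family, whose members keep the shoot apex growing and delay flowering.

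The descriptions came from the study's supplementary list of probes, which was itself chosen on these arrays, so a count of described members is no independent evidence. The list held 17 of the 39 members, and 16 of these had a description. All 17 were among its 59 probes lower in Ldn/KU-2025, of which the other 42 were not members. No member was among the 1096 entries used here of its list of probes higher in crt/KU-2025, although 11 crt-higher members had probe numbers within the stretch used. The other 22 members had no entry and are known here by probe name only.

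The most uniform set was a block of 14 crt-higher probes with clone names, 11 beginning with MUG and 3 with yNPF. Such names made up 35.9% of the members, 0% of the 14 crt-unchanged members and 3.73% of all probes. They made up 4.91% of the bright probes and 15.5% of the 142 probes that met the condition for Ldn/KU-2025. The set was noticed in the values, so these shares are given without a test. Listed descriptions covered 8 of the 14, and each of the 8 had the ontology terms extracellular region, ion channel inhibitor activity and pathogenesis. These 8 were 4 probes matched to the rice gene Os11g0211800 (MUG024E09R990620, MUG023C12R990620, yNPF2149pBST3 and yNPF2183pBST3), 3 matched to the rice gene LOC_Os11g10590 (MUG017D05R990203, MUG021B10R990620 and MUG014H01R990622) and MUG015D10R990628, listed as "specific abundant 1". Of the remaining 6, yNPF2241pBST3 was listed without a description and MUG011A04R990108, MUG020H08R990620, MUG002H09R990520, MUG024F08R990620 and MUG014F09R990617 were not listed.

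In this block the signal was 37.2 to 247.2 for Ldn/KU-2025, 462.3 to 30189.1 for crt/KU-2025 and 236.0 to 1217.3 for WT. The ratio of Ldn/KU-2025 to WT was nearly the same for each probe, with log2 values of -2.60 to -2.17 and a median of -2.27. Set against WT, crt/KU-2025 had log2 ratios of 2.37 to 3.14, the median being 2.82. All 14 probes were well above background on all 6 arrays.

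MUG024E09R990620 had the lowest ratio to WT in Ldn/KU-2025 of the block, with a signal of 45.0 and 37.2 for Ldn/KU-2025, 8282.8 and 534.4 for crt/KU-2025, and 259.3 and 236.0 for WT. MUG014H01R990622 had the highest ratio to WT in crt/KU-2025 of the block, with 93.8 and 78.1 for Ldn/KU-2025, 12481.6 and 997.1 for crt/KU-2025, and 412.2 and 387.2 for WT. In both probes the lines did not overlap, and crt/KU-2025 replicate 1 stood far above every other array. MUG023C12R990620 gave 85.0 and 79.7 for Ldn/KU-2025, 11687.7 and 744.4 for crt/KU-2025, and 471.7 and 426.4 for WT. yNPF2149pBST3 gave 45.1 and 55.9 for Ldn/KU-2025, 8444.7 and 529.9 for crt/KU-2025, and 271.7 and 253.7 for WT. These probes, both matched to Os11g0211800, had the same order of lines and the same uneven pair of crt/KU-2025 arrays. The probe listed as "specific abundant 1", MUG015D10R990628, gave 117.5 and 100.8 for Ldn/KU-2025, 14908.2 and 1092.3 for crt/KU-2025, and 552.3 and 494.8 for WT.

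The brightest probes of the block in WT had no description. MUG024F08R990620 gave 242.1 and 247.2 for Ldn/KU-2025, 30189.1 and 2206.9 for crt/KU-2025, and 1217.3 and 1021.2 for WT. yNPF2241pBST3 gave 186.3 and 190.3 for Ldn/KU-2025, 24619.2 and 1817.1 for crt/KU-2025, and 972.6 and 1055.4 for WT. Both had the same order of lines as the dimmer probes, with crt/KU-2025 replicate 1 again far above replicate 2. MUG017D05R990203, matched to LOC_Os11g10590, lay nearest to the limit of the crt-higher group, with 163.2 and 147.2 for Ldn/KU-2025, 15315.3 and 997.8 for crt/KU-2025, and 749.7 and 760.2 for WT. Its lower crt/KU-2025 value was 1.31 times the higher WT value.

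The size of the difference from WT in crt/KU-2025 rested on replicate 1. Over the 14 probes, crt/KU-2025 replicate 1 was 20.3- to 33.5-fold the WT level and crt/KU-2025 replicate 2 was 1.32- to 2.50-fold. Replicate 1 was 12.5- to 16.6-fold above replicate 2, with a median of 14.9-fold, and in the other 25 members that fold was 0.612 to 1.86. The median absolute log2 difference between the crt/KU-2025 replicates was 3.90 in the block and 0.20 in the other 25 members, against 0.18 over the bright probes. In Ldn/KU-2025 and WT the replicates of the block differed by a median of 0.14 and 0.14. Without crt/KU-2025 replicate 1, all 14 probes still met the conditions for crt-higher, since these use the lower crt/KU-2025 value. The leaf-type probes moved the other way between the same arrays, with summed signals of 16319 in crt/KU-2025 replicate 1 and 177103 in replicate 2, and the histone probes moved the same way as the block, with 2317 and 399. Their part in the values of the block was not tested.

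Only 48 of the 25798 bright probes, or 0.186%, had crt/KU-2025 replicate 1 at least 12.5-fold above replicate 2, and the 14 of them with both crt/KU-2025 values at or above the lower WT value were those of the block. That fold was the lowest within the block, so the block meets it by construction. Among the 1266 bright MUG and yNPF probes, 40, or 3.16%, were at least 8-fold higher in replicate 1, of which 14 were members. The share of all bright probes at 8-fold is not given here, so this count does not set such names apart. The spots of the block were scattered over rows 50 to 526 of 532 and columns 1 to 83 of 85. Within 4 rows and 4 columns of each, the other spots had a median log2 difference, crt/KU-2025 replicate 1 minus replicate 2, of -0.15 to 0.11, against -0.02 over all probes. The spots around the block thus showed no such difference between the replicates.

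No other probe on the array lay as close to the mean profile of the block as its own members. That mean was taken over these 14 probes, which were noticed on the same 6 arrays. Their closeness to it is thus partly set by the choice, and the distances are a description. The distance of a probe from the mean profile of the block was taken as the root mean square difference of log2 signal over the 6 arrays after each profile had been centred on its own mean. The 14 members lay at 0.05 to 0.23 and the nearest other probe, whr22l05, lay at 0.66, with 7.4 and 7.9 for Ldn/KU-2025, 389.0 and 30.9 for crt/KU-2025, and 20.6 and 11.3 for WT. MUG017B09R990130, the remaining probe with the same ontology terms in the list, lay at 1.06 and was no member. It gave 86.4 and 76.3 for Ldn/KU-2025, 1826.2 and 150.9 for crt/KU-2025, and 296.2 and 271.5 for WT, so that its second crt/KU-2025 array was below WT. With it, the study's list held 9 probes of this description, of which 8 were members. How far these probes share sequence, and could be read by 1 transcript, was not tested, so the 14 probes cannot be counted as 14 separate genes.

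The remaining 11 crt-higher members were 8 wheat0130 contigs and 3 MUGEST2003 contigs, and their crt/KU-2025 replicates lay 0.780- to 1.86-fold apart. wheat0130Contig12609 had the largest contrast of all members and no description. Its signal was 4.9 and 16.2 for Ldn/KU-2025, 9277.8 and 7344.7 for crt/KU-2025, and 179.8 and 262.8 for WT. Both Ldn/KU-2025 arrays were not well above background, both crt/KU-2025 arrays were far above WT, and the lines did not overlap. Its crt/KU-2025-to-WT log2 ratio was 5.25 ± 0.64 (SE, n = 2 arrays each). This SE, like those below, came from a fit that pools the spread of all 3 lines. It therefore also holds the spread of the Ldn/KU-2025 arrays. In Ldn/KU-2025 the signal was at least 9.04-fold lower than in WT.

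For a probe that was not well above background in Ldn/KU-2025, such a bound took the mean log2 signal of WT over that of Ldn/KU-2025, with each Ldn/KU-2025 value raised, where needed, to the dimmest well-above-background signal on its array, 23.9 and 24.2. Of the 39 members, 4 were below this mark on both Ldn/KU-2025 arrays and 1 on a single array. MUGEST2003_23lib_Contig10287_996, without a description, gave 16 and 7.7 for Ldn/KU-2025, 216.2 and 277.1 for crt/KU-2025, and 141.4 and 122.5 for WT, and was lower than in WT by at least 5.47-fold in Ldn/KU-2025. wheat0130Contig1394, matched to the rice gene Os02g0827400, gave 5.4 and 8.6 for Ldn/KU-2025, 125.3 and 109.0 for crt/KU-2025, and 71.2 and 80.3 for WT, and was at least 3.14-fold lower. It was also the dimmest member in WT. In both probes crt/KU-2025 was above WT by less than 2-fold.

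wheat0130Contig7595 was described as 4-hydroxyphenylacetaldehyde oxime monooxygenase, a cytochrome P450 known in sorghum from the synthesis of the cyanogenic glucoside dhurrin. Its signal was 37.6 and 31.5 for Ldn/KU-2025, 297.5 and 175.9 for crt/KU-2025, and 116.2 and 120.6 for WT. The log2 ratio to WT was -1.78 ± 0.28 for Ldn/KU-2025 and 0.95 ± 0.28 for crt/KU-2025 (SE of the 3-line fit, n = 2 arrays each). In crt/KU-2025, replicate 1 was 1.69-fold above replicate 2. Among the listed probes lower in Ldn/KU-2025 it was the only entry with a P450 or oxidoreductase description. wheat0130Contig2274, matched to the rice gene Os11g0678200, gave 150.0 and 156.3 for Ldn/KU-2025, 992.2 and 920.5 for crt/KU-2025, and 581.4 and 577.2 for WT. Its replicates were close in every line, and the log2 ratio to WT was -1.92 ± 0.07 for Ldn/KU-2025 and 0.72 ± 0.07 for crt/KU-2025.

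The other 6 crt-higher contigs had no description. The brightest of them in WT, wheat0130Contig9925, gave 604.1 and 659.8 for Ldn/KU-2025, 2301.7 and 2424.4 for crt/KU-2025, and 1479.2 and 1408.0 for WT. MUGEST2003_23lib_Contig8830_296 gave 49.1 and 54.5 for Ldn/KU-2025, 656.6 and 488.4 for crt/KU-2025, and 154.1 and 141.8 for WT. After wheat0130Contig12609 it had the highest ratio to WT in crt/KU-2025 outside the block, with a log2 value of 1.94 ± 0.17. The rest were wheat0130Contig8192, wheat0130Contig3401, wheat0130Contig8666 and MUGEST2003_23lib_Contig13394_1386, with log2 ratios to WT of -1.36 to -1.04 for Ldn/KU-2025 and 0.89 to 1.13 for crt/KU-2025. MUGEST2003_23lib_Contig13394_1386 lay nearest inside the limit for Ldn/KU-2025, with 70.6 and 73.2 for Ldn/KU-2025, 321.1 and 233.7 for crt/KU-2025, and 149.8 and 146.8 for WT, where the higher Ldn/KU-2025 value was 0.499 times the lower WT value.

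Among the 14 crt-unchanged members, the log2 ratio to WT was -3.78 to -1.13 in Ldn/KU-2025, with a median of -1.65, and -0.66 to 0.47 in crt/KU-2025, where the median was 0.19. The lowest ratio in Ldn/KU-2025 belonged to ncbi_gi_24571200_1260, described as a partial Mla sequence with the ontology term ADP binding. Mla is the powdery mildew resistance locus of barley and encodes receptors of the nucleotide-binding leucine-rich repeat class. Its signal was 6.2 and 6.4 for Ldn/KU-2025, 97.5 and 116.8 for crt/KU-2025, and 89.5 and 84.0 for WT. Both Ldn/KU-2025 arrays were not well above background, whereas crt/KU-2025 was slightly above WT on both arrays. Relative to WT, the signal in Ldn/KU-2025 was lower by at least 3.61-fold, and the crt/KU-2025-to-WT log2 ratio was 0.30 ± 0.11.

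The study's list of probes lower in Ldn/KU-2025 held 2 further resistance gene entries, and neither was a member. The probe described as RPM1, rwhcs10h11_747, gave 6.0 and 6.3 for Ldn/KU-2025, 6.7 and 6.5 for crt/KU-2025, and 90.8 and 102.8 for WT. The other, rwhyf28g23, gave 44.6 and 53.0 for Ldn/KU-2025, 5.4 and 5.1 for crt/KU-2025, and 281.5 and 298.9 for WT. Both were far below WT in both dwarf lines, and the Mla probe was below WT in Ldn/KU-2025 alone.

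wheat0130Contig9162 was described as centroradialis. Its signal was 311.6 and 353.1 for Ldn/KU-2025, 1052.7 and 1721.2 for crt/KU-2025, and 1264.0 and 1331.2 for WT. The crt/KU-2025 replicates lay on either side of the WT values, so the lines overlapped, and both Ldn/KU-2025 values were below all others. The log2 ratio to WT was -1.97 ± 0.26 for Ldn/KU-2025 and 0.05 ± 0.26 for crt/KU-2025, and both SEs hold the spread of the crt/KU-2025 pair. The sign of the crt/KU-2025 ratio turned with 75th percentile scaling and with quantile normalization. It was the only entry with a flowering or meristem description among the listed probes lower in Ldn/KU-2025. The 3 AP1/FUL-type MADS-box probes had sums of 1546 and 1776 in crt/KU-2025 against 4761 and 5075 in WT. In crt/KU-2025, 2 of the 3 were above background on neither array.

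MUGEST2003_23lib_Contig11601_205, listed as "Glutathione cytosolic", gave 159.6 and 139.3 for Ldn/KU-2025, 1363.9 and 1163.5 for crt/KU-2025, and 1504.9 and 1543.9 for WT. It was 10.2-fold lower in Ldn/KU-2025 than in WT, the largest such fold among members measured on all 6 arrays, and both crt/KU-2025 arrays were slightly below both WT arrays. MUGEST2003_23lib_Contig15225_413, matched to the rice gene Os05g0465000, gave 51.9 and 52.6 for Ldn/KU-2025, 200.6 and 325.4 for crt/KU-2025, and 211.5 and 191.7 for WT, so that crt/KU-2025 and WT overlapped. MUGEST2003_23lib_Contig9995_450, with the ontology terms integral component of membrane and zinc ion binding, gave 883.5 and 763.4 for Ldn/KU-2025, 3070.0 and 2854.8 for crt/KU-2025, and 2696.5 and 2707.1 for WT. It was 3.29-fold lower in Ldn/KU-2025, and its crt/KU-2025-to-WT log2 ratio, 0.13 ± 0.10, also changed sign with either other scaling.

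In 2 members without a description the WT arrays themselves were far apart. whei13l23_257 gave 21.3 and 30.7 for Ldn/KU-2025, 107.9 and 119.3 for crt/KU-2025, and 123.1 and 262.5 for WT, with 1 of the Ldn/KU-2025 arrays well above background and a signal there at least 6.64-fold below WT. wh27o04 gave 74.8 and 67.1 for Ldn/KU-2025, 477.7 and 508.2 for crt/KU-2025, and 244.9 and 518.0 for WT. In whei13l23_257 crt/KU-2025 was below WT, and in wh27o04 it lay between the WT values.

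The brightest members in WT were whsh_allContig1100 and wheat0130Contig11000, neither with a description. whsh_allContig1100 gave 6201.9 and 6582.6 for Ldn/KU-2025, 22427.2 and 23503.5 for crt/KU-2025, and 18896.6 and 19141.9 for WT. wheat0130Contig11000 gave 7718.4 and 8190.0 for Ldn/KU-2025, 20130.2 and 20986.4 for crt/KU-2025, and 17419.6 and 17366.8 for WT. Their replicates differed little, and crt/KU-2025 was above WT by 1.21- and 1.18-fold, with Ldn/KU-2025 lower by 2.98- and 2.19-fold. The last 5 members, wheat0130Contig5657, wheat0130Contig6297, MUGEST2003_23lib_Contig8217_113, MUGEST2003_23lib_Contig21030_135 and wheat0130Contig7435, were 2.18- to 2.36-fold lower in Ldn/KU-2025 than in WT. The first 2 of them were above WT in crt/KU-2025, by 1.30- and 1.28-fold, and the other 3 were at 0.739, 0.844 and 0.826 times WT.

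The limits of the choice had near neighbours on both sides. For Ldn/KU-2025, rwhh26k13 missed the limit with a ratio of 0.501, with 60.4 and 61.6 for Ldn/KU-2025, 216.0 and 320.5 for crt/KU-2025, and 123.0 and 124.1 for WT. For crt/KU-2025, MUGEST2003_23lib_Contig8217_113 was just inside at 0.756 times the lower WT value and MUG005D07R990204 just outside at 0.704. The dimmest member had a lower WT value of 71.2, and wheat0130Contig3781, with a lower WT value of 48.6, would otherwise have met the conditions. Between the groups, wheat0130Contig6297 was the highest crt-unchanged member, at 1.19 times the higher WT value.

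The 103 probes lowered in Ldn/KU-2025 to the same extent but not kept in crt/KU-2025 had log2 ratios to WT with a median of -1.78 for Ldn/KU-2025 and of -4.03 for crt/KU-2025. For the 39 members the median was -2.19 for Ldn/KU-2025 and 0.95 for crt/KU-2025, a contrast in crt/KU-2025 that the choice sets. Over all probes it was -0.02 for Ldn/KU-2025 and 0.10 for crt/KU-2025. Without the block, the other 25 members had a median of -1.57 for Ldn/KU-2025 and 0.37 for crt/KU-2025, and the median log2 ratio between the dwarf lines (crt/KU-2025 over Ldn/KU-2025) was 2.16, against 3.08 with the block. Of the 59 listed probes lower in Ldn/KU-2025, 17 were members, and some families had entries on both sides, with 8 of 9 entries of the extracellular ion channel inhibitor description and 1 of 3 resistance gene entries among the members. The 4 histone, 3 wall-associated kinase, 2 chitinase and protease inhibitor, 1 heat shock and 1 transposon entries held 0 members, counts too small to set these families apart. The 4 histone probes had log2 ratios to WT of -2.60 to -1.85 for Ldn/KU-2025 and -8.30 to -4.44 for crt/KU-2025.

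Calls across all probes are given only as background, because the choice used the same contrasts. With limma, a change of at least 3-fold and an adjusted p under 0.05 over all 37826 probes, 0.196% of probes were called lower in Ldn/KU-2025 than in WT, and 12 of the 39 members were: 7 crt-unchanged members, 5 of the other crt-higher members and 0 of the block. In that fit, whose spread pools all 3 lines and so holds the uneven crt/KU-2025 arrays, 0 of the 14 block probes had an unadjusted p under 0.05 either. Of all 37826 probes, 11571 had such a p in either direction. A fit of Ldn/KU-2025 and WT alone called 14 of the 14 and 26 of the 39, against 0.299% of all probes, and the methods' t-test called 12 of the 14 and 20 of the 39, against 0.177%.

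Against WT, 11.8% of probes were called higher in crt/KU-2025 by limma, and 2 members were, wheat0130Contig12609 and MUGEST2003_23lib_Contig8830_296. Of the block 0 were called and 0 had an unadjusted p under 0.05, against 24914 of all 37826 probes in either direction. The methods' t-test, which called 6.82% of all probes, called 0 of the block and 1 of the 39. The calls of the block turned on which crt/KU-2025 array was kept. A fit with a lone array takes it to vary like the others, so only the size of the difference is given. Over the block it was 1.32- to 2.50-fold WT with crt/KU-2025 replicate 2 alone. With replicate 1 alone it was 20.3- to 33.5-fold. Between the dwarf lines, limma called 9.39% of probes as higher in crt/KU-2025, and 34 of the 39 members were, with 14 of the block, 11 of the other crt-higher members and 9 of the crt-unchanged members. A fit of the dwarf lines alone called 20 of the 39 and 0 of the block, against 9.23% of all probes. In that fit 13 of the block had an unadjusted p under 0.05, as had 22559 of all 37826 probes in either direction. The methods' t-test called 13 of the 39 and 0 of the block, against 5.05% of all probes. By that test 0 of the block had an unadjusted p under 0.05, against 18482 of all probes in either direction.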

How the data were processed

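The authors hybridized Cy3-labeled cRNA and read each array with Feature Extraction, version 9.5 per the labels and 10.7.3.1 per the file headers, to obtain a processed intensity per spot, background-subtracted and spatially detrended. They multiplied each array by 2500 over its mean trimmed of 2% of values at each end, with factors of 1.66 to 2.47, and deposited the scaled intensity values used here. The same scaling of the deposited scanner intensities gave a median ratio of 1.0. The 1417 control spots were left out, and no floor or pseudocount was used. Log2 values were taken from the scaled intensities deposited by the authors.

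All probes were fitted with lmFit and eBayes of limma 3.58.1 (R 4.3.3) with 3 lines as groups, 3 residual degrees of freedom and Benjamini-Hochberg adjustment. It was first tested on simulated data, with a spread per probe alike in all lines and capped at the median over probes. That test does not bear on probes as uneven between the crt/KU-2025 arrays as those of the block. The methods' t-test was Student's test on scaled signals at the study's threshold of 3-fold. Tables were computed in Python 3.11.15 (scipy 1.17.1, pandas 2.3.3, numpy 2.4.6).

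The members, the lists and the named probes were chosen with earlier results of these data known. Named were described members, the 5 lowest in Ldn/KU-2025 of each group, the 5 highest in crt/KU-2025, the 3 brightest in WT of each group and the probes nearest each limit; further members were named to account for all. MUG017B09R990130, whr22l05 and MUGEST2003_23lib_Contig8830_296 were named after their values were seen. Descriptions came from the study's supplementary list, of which the down-regulated list of crt/KU-2025 was not used here. A reference gene table matched 0 probe names, and probe sequences were not used here. The alternatives were other scalings, dim probes removed, stricter limits, each array left out, a replicate block, fits of 2 lines, the methods' t-test and a 2-fold threshold. Normexp, planned on mean spot signals, was run on median spot signals with an offset of 50, since the tables used here hold no mean spot signal, and this and the medians without the MUG and yNPF members were chosen after seeing the data. With 2 arrays per line, their number limits the precision.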

Additional observations from a re-analysis of the deposited data

Results flagged for a closer look

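Against WT the dwarf lines moved in opposite directions for 31 of the 39 members, which were lower on both Ldn/KU-2025 arrays and higher on both crt/KU-2025 arrays than on both WT arrays. This holds for 9.68% of all 37826 probes. The lower side is fixed by the choice of members, and so is the higher side for the 25 crt-higher members, so that only the 6 crt-unchanged members of this kind were free to lie elsewhere above their limit. Because the choice used all 3 lines, no test of the difference between the dwarf lines is independent of it. The limma calls of that difference, 34 of the 39 members against 9.39% of all probes, are background only. With 75th percentile scaling 28 members had both crt/KU-2025 arrays above WT, and with quantile normalization 30 did. The share of all probes under these 2 scalings was not computed, so these counts only describe the members.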

How the results depend on the processing

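The number of members stayed within 1.5 times of 39 except with normexp and without either WT array. Normexp on median spot signals, chosen after seeing the data, gave 23 members, 9 crt-unchanged and 14 crt-higher, with the block of 14 all among the 23. Leaving out single arrays gave 44 to 68 members, 14 to 23 of them crt-unchanged and 26 to 45 crt-higher. There were 68 without WT replicate 1 and 61 without WT replicate 2, since 1 value then stands for the lower WT value, and 44 to 49 without a single array of a dwarf line. A stricter Ldn/KU-2025 limit of 0.4 gave 28 members and a crt/KU-2025 limit at the lower WT value gave 33, each with 8 crt-unchanged members. The 14 MUG and yNPF probes were members in every setting. Many settings could not have removed them. Leaving out an array of a dwarf line cannot remove a member, and their values lay inside every stricter limit. Other scalings shared 33 to 34 of the 39. Of the 14 crt-unchanged members, 9 stayed in that group with 75th percentile scaling and 8 with quantile normalization. These scalings moved the median crt/KU-2025-to-WT log2 ratio of all probes to -0.11 (75th percentile) and 0.01 (quantile), against 0.10.

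Over the members, the median Ldn/KU-2025-to-WT log2 ratio, -2.19, was -2.27 with 75th percentile scaling, -2.29 with quantile normalization, -1.96 with dim probes removed, -1.57 without the MUG and yNPF members and -2.25 to -2.09 with arrays left out. The median crt/KU-2025-to-WT ratio, 0.95, was 0.37 without the MUG and yNPF members and 0.69 to 1.15 with arrays left out. The median between the dwarf lines, crt/KU-2025 over Ldn/KU-2025, 3.08, was 2.77 with dim probes removed, 2.16 without the MUG and yNPF members and 2.84 to 3.19 with arrays left out.

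Of all probes, 74 were called lower in Ldn/KU-2025 than in WT, against 113 in a fit of these lines alone, 160 at 2-fold and 15 to 113 with arrays left out. In crt/KU-2025 against WT 8619 were called in either direction, against 13998 at 2-fold and 5596 with the methods' t-test, and between the dwarf lines 3553 were called higher in crt/KU-2025, against 6785 at 2-fold and 1912 with the methods' t-test. The replicate numbers did not pair the arrays (correlations of replicate differences of -0.07 to 0.03 over all probes), and with the replicate block the calls lower in Ldn/KU-2025 numbered 30 of all probes and 4 of the members. The block changed no other count by over 1.5 times. Fewer members were called lower in Ldn/KU-2025 whichever Ldn/KU-2025 or WT array was left out. Fewer were also called higher in crt/KU-2025 than in the other dwarf without either Ldn/KU-2025 array. That second fall lay in the 14 MUG and yNPF probes alone, and the number called among the other members did not change. Over all probes those calls stayed within 1.5 times. Since 1 array then stands for a line, these counts of members are not given. The planned normexp on mean spot signals was not run. Of all alternative values, 86 stayed within the limits used and 46 moved, and no median over the members changed sign. The crt/KU-2025-to-WT ratios of 2 members, MUGEST2003_23lib_Contig9995_450 and wheat0130Contig9162, changed sign with 75th percentile scaling and with quantile normalization. Dim signals limit 5 members in Ldn/KU-2025 to bounds, and 2 arrays per line limit all values.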
